A study of Homo sapiens with 4 samples.

Results

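Interferon-stimulated genes with an antiviral role were followed in THP-1, a human monocytic leukaemia line in long use. The set is a list of 36 named genes, grouped here by function. Each gene was represented by the probe set annotated to it alone that had the highest mean over the arrays, and by the range over its other probe sets. All 36 had such a probe set, out of 19775 genes with a probe set of their own, and 20 of them had more than 1. Each array value is a log2 value made by the robust multiarray average method (RMA). The study measured 4 conditions, each on 1 array: cells given Pam3CSK4 and kept with platelet-like particles for 12 h, the same for 24 h, cells given Pam3CSK4 alone, and resting THP-1 cells without any addition. Pam3CSK4 is a synthetic lipopeptide ligand of the TLR1 and TLR2 receptor pair. The cells that gave the particles, whether particles were removed before lysis, and the time in Pam3CSK4 alone are not given in the sources used here. With 1 array per condition there is no spread between cultures, so every difference below compares single arrays, carries no p-value or SD, and is a description.

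When a cell senses viral nucleic acid or a microbial product, it can secrete type I interferon, which binds its receptor on the same or nearby cells. Kinases at the receptor then set off a signal to the nucleus, where a transcription factor complex that contains IRF9 binds the interferon-stimulated response element in promoters and switches on antiviral genes. Their products detect viral RNA, block its translation, degrade it, starve the virus of nucleotides or hold particles at the membrane. Monocytes are known for a strong response of this kind.

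The response element was looked for in the members' promoters because these genes are listed as interferon-stimulated. In RefSeq promoter windows of build GRCh38.p14, each from 250 bases before a gene's start to 50 after it, 29 of the 36 members had a window, and 40 windows in all. The core of the element, 2 GAAA blocks with any 2 bases between them, was searched on both strands, with overlapping matches counted. It was present for 22 of the 29 members (75.9%), against 1195 of all 27305 genes in the table (4.38%). A high share among the members can come from how the list was made, and it says nothing about their levels on these arrays. Where windows of a gene overlap, a site was counted once, which left 41 sites, 22 in the orientation of the gene and 19 in the opposite one. The members whose windows held no match were CMPK2, HERC6, IFI35, OAS1, RIGI, SAMD9L and XAF1. A match is a run of letters, and a window without one says nothing about bases outside it.

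Short stretches around a match are shown for members that carry the results below, with the matches in capitals. For IFIT1 it is chr10:89392505-89392544 on the plus strand, for ISG15 chr1:1013375-1013414 on the plus strand and for IFI44L chr1:78620360-78620399 on the plus strand. For OAS3 it is chr12:112938447-112938473 on the plus strand, for EPSTI1 chr13:42992267-42992306 on the minus strand and for IFI27 chr14:94110626-94110665 on the plus strand. BST2, at chr19:17405730-17405769 on the minus strand, and LGALS3BP, at chr17:78979957-78979996 on the minus strand, are shown as well. Both held the core and were under 2-fold apart in all 4 comparisons made here. SAMD9, which is not shown, met the same rule on its chosen probe set. Its 12 h and 24 h values were nevertheless 1.30 and 1.09 log2 above rest, a pair of differences outside the 4 comparisons. All 8 stretches lie upstream of an annotated start of the gene and run 5′ to 3′ in the direction of the gene. Matches in the opposite orientation read as 2 TTTC blocks with 2 bases between them.
IFIT1: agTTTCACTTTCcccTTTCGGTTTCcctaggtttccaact
ISG15: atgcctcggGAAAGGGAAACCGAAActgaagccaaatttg
IFI44L: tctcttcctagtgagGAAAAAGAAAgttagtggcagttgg
OAS3: cggagagccgggcggGAAAACGAAAcc
EPSTI1: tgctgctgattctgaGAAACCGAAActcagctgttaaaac
IFI27: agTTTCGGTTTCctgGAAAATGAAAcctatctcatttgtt
BST2: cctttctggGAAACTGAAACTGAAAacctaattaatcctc
LGALS3BP: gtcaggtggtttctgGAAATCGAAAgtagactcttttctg
The capitals of ISG15 and of BST2 are 2 overlapping matches each, and IFIT1 and IFI27 hold 2 separate ones.

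Taken over all arrays, most members had 1 pattern: lowest at rest, far higher with Pam3CSK4, highest at 12 h of co-culture and, at 24 h, between the 12 h and Pam3CSK4 values. The 12 h array held the highest value for 33 of 36 members (91.7%), against 29.8% of all genes. The resting array held the lowest value for 35 of 36 (97.2%), against 24.98% of all genes. The full order of 12 h, then 24 h, then Pam3CSK4, then rest was found for 28 members (77.8%) and for 6.96% of all genes. A further 5 members, OAS3, OASL, DHX58, IFI35 and PARP9, had the 24 h value just under the Pam3CSK4 value. The remaining exceptions were IFIT2 and IFI27, highest at 24 h, and BST2, highest with Pam3CSK4. The median of the members' values was 10.24 log2 at 12 h, 9.85 at 24 h, 9.63 with Pam3CSK4 and 7.28 at rest. All 36 reached the median of all values on the arrays, 6.19, on at least 1 array, and on the co-culture and Pam3CSK4 arrays none was under it.

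**Figure D1:**
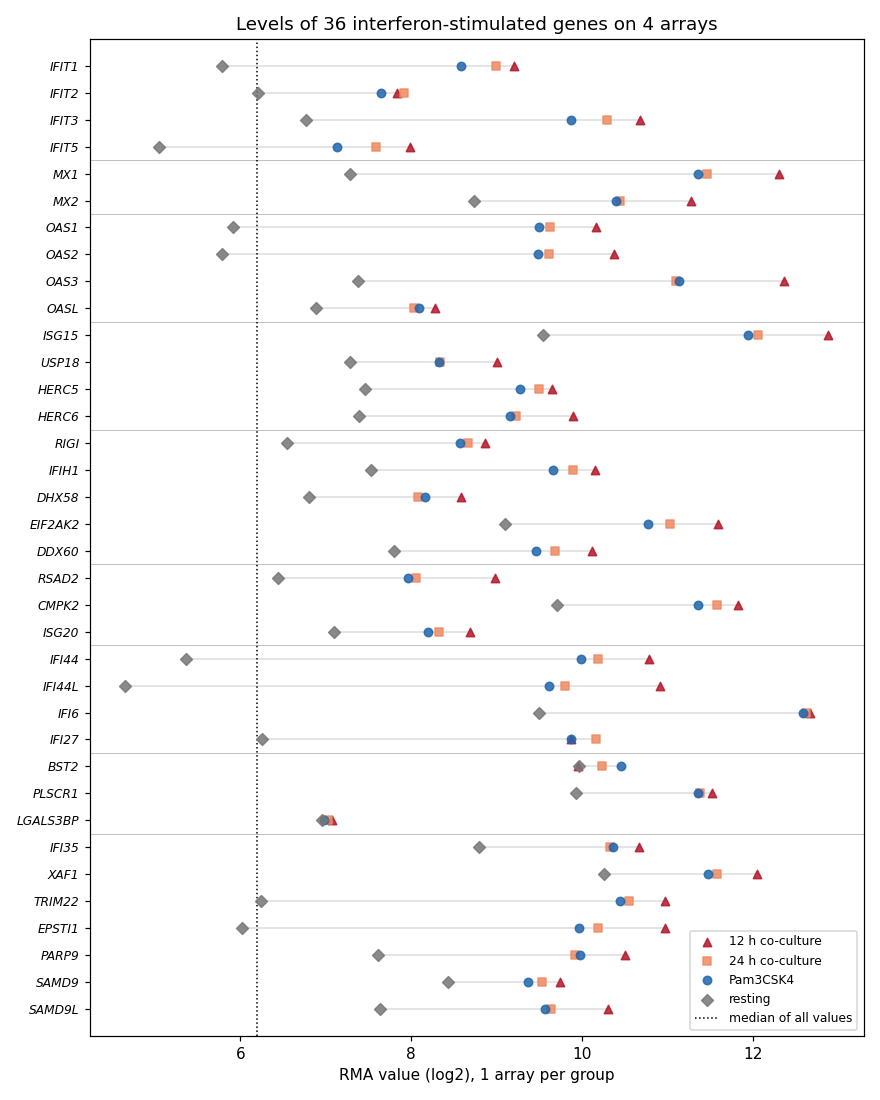
RMA values (log2, horizontal axis) of the 36 members on the 12 h, 24 h, Pam3CSK4 and resting arrays, 1 array each, with members grouped by role; the dotted line is the median of all values, 6.19. The resting symbol is leftmost for 35 members and the 12 h symbol is rightmost for 33; levels are read along a line, not between genes.

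The first comparison asked how Pam3CSK4 alone differed from rest. Of the 36 members, 33 were at least 2-fold higher with Pam3CSK4 and 0 were lower, with a median difference of 1.87 log2. The share of all 19775 genes that was at least 2-fold higher was 2.86%, and it was 4.14% of the 13410 genes that reached 6.19 on any array. At least 2-fold lower were 1.22% of all genes, and the median over all genes was -0.04. By size, 11 members were at least 8-fold higher, 6 lay between 4-fold and 8-fold, and 16 between 2-fold and 4-fold. Of the 33, 7 had a resting value under 6.19, where signal above background was not established and the size of the difference depends on background: IFIT1, IFIT5, OAS1, OAS2, IFI44, IFI44L and EPSTI1. Among the 29 members at or above 6.19 on both arrays, 26 were at least 2-fold higher. The share of all genes under this stricter filter is not given here, so the last count has no like background.

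The array controls for RNA integrity differed between these arrays as well. For GAPDH, the control at the 3′ end exceeded the one at the 5′ end by 0.59 log2 with Pam3CSK4 and 2.16 at rest, and the same gap of ACTB was 2.91 with Pam3CSK4 and 3.41 at rest. The part of this gap in the members' differences was not tested. On the co-culture arrays the GAPDH gap was 0.92 at 12 h and 0.70 at 24 h.

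IFI44L and IFI44 are neighbouring interferon-induced genes on chromosome 1. IFI44L had 10.91 log2 at 12 h and 9.81 at 24 h, 9.61 with Pam3CSK4 and 4.65 at rest, and its difference of Pam3CSK4 from rest, 4.96, was the largest of the list. IFI44 had 10.79 at 12 h and 10.19 at 24 h, 9.99 with Pam3CSK4 and 5.36 at rest, a difference of 4.63 with Pam3CSK4. Only the resting array was low for either gene. The other IFI44 probe set lay under 6.19 on every array and differed by 1.46.

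IFI6 and IFI27 encode related small membrane proteins; IFI6 is known to limit cell death and IFI27 to promote it. IFI6 had 12.67 log2 at 12 h and 12.63 at 24 h, 12.59 with Pam3CSK4 and 9.50 at rest, a difference of 3.10 with Pam3CSK4. IFI27 had 9.87 at 12 h, 10.17 at 24 h, 9.87 with Pam3CSK4 and 6.25 at rest, a difference of 3.62. For both, the 3 arrays with Pam3CSK4 were close together and only the resting array was apart.

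The oligoadenylate synthetases make the messenger that activates RNase L, which cuts viral and cellular RNA. OAS3 had 12.37 log2 at 12 h and 11.11 at 24 h, 11.14 with Pam3CSK4 and 7.37 at rest. OAS2 had 10.38 at 12 h and 9.61 at 24 h, 9.49 with Pam3CSK4 and 5.78 at rest. OAS1 had 10.17 at 12 h and 9.63 at 24 h, 9.50 with Pam3CSK4 and 5.91 at rest. On the chosen probe sets, these 3 differed from rest by 3.77, 3.71 and 3.58 with Pam3CSK4, 3 values that lie close together. Their resting values there were far below those on the other 3 arrays. Other probe sets differed by 0.40 for OAS3, 0.32 and 2.09 for OAS2, and 3.54 for OAS1. The OAS3 one lay under 6.19 on all arrays. OASL, a relative without synthetase activity that binds the sensor RIG-I, differed by 1.21 on its chosen probe set and 2.19 on the other. On the chosen one, OASL had 8.28 at 12 h and 8.03 at 24 h, 8.09 with Pam3CSK4 and 6.89 at rest.

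The dynamin-like GTPases MX1 and MX2 trap viral nucleocapsids. MX1 had 12.31 log2 at 12 h and 11.46 at 24 h, 11.35 with Pam3CSK4 and 7.28 at rest, a difference of 4.07 with Pam3CSK4, or 16.8-fold. MX2 had 11.28 at 12 h and 10.44 at 24 h, 10.40 with Pam3CSK4 and 8.74 at rest, a difference of 1.66, or 3.16-fold. Both stood lowest at rest, but MX1 by a far wider margin than its paralog.

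The IFIT proteins bind viral RNA and block its translation. With Pam3CSK4, IFIT3 was 3.10 log2 above rest, IFIT1 2.80, IFIT5 2.08 and IFIT2 1.44. The other probe sets of 3 of them gave less: 1.10 for IFIT3, 0.63 for IFIT5 and 0 for IFIT2, whose other probe set stood at 5.66 on both arrays, under 6.19. IFIT1 has 1 probe set. On the log2 scale, IFIT1 had 9.20 at 12 h and 8.99 at 24 h, 8.58 with Pam3CSK4 and 5.78 at rest. IFIT3 had 10.68 at 12 h and 10.29 at 24 h, 9.87 with Pam3CSK4 and 6.77 at rest. Both were lowest at rest and highest at 12 h. IFIT5 had 7.99 at 12 h and 7.59 at 24 h, 7.13 with Pam3CSK4 and 5.05 at rest. IFIT2 had 7.84 at 12 h and 7.92 at 24 h, 7.64 with Pam3CSK4 and 6.20 at rest. The 3 arrays with Pam3CSK4 lay close together for IFIT2 and further apart for IFIT5.

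ISG15 is a ubiquitin-like protein that is attached to other proteins. It had 12.89 log2 at 12 h and 12.07 at 24 h, 11.94 with Pam3CSK4 and 9.54 at rest, a difference of 2.40 with Pam3CSK4. HERC5, the ligase that attaches ISG15, differed by 1.81 and its relative HERC6 by 1.76. USP18, the protease that removes ISG15 and also dampens the type I receptor, differed by 1.05, just past 2-fold. It had 9.01 log2 at 12 h and 8.34 at 24 h, 8.33 with Pam3CSK4 and 7.28 at rest. The 24 h and Pam3CSK4 arrays were almost equal for USP18, and the same held for HERC6. HERC6 had 9.90 at 12 h and 9.22 at 24 h, 9.16 with Pam3CSK4 and 7.39 at rest. HERC5 had 9.65 at 12 h and 9.50 at 24 h, 9.27 with Pam3CSK4 and 7.46 at rest.

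The sensors of viral RNA were all higher with Pam3CSK4, between 1.36 and 2.12 log2 on their chosen probe sets. IFIH1, which encodes MDA5, a sensor of long double-stranded RNA, differed by 2.12, and RIGI, which recognises RNA with a 5′ triphosphate, by 2.03. In log2 values, IFIH1 had 10.16 at 12 h and 9.89 at 24 h, 9.66 with Pam3CSK4 and 7.53 at rest. RIGI had 8.86 at 12 h and 8.67 at 24 h, 8.57 with Pam3CSK4 and 6.55 at rest. For both, the 12 h, 24 h and Pam3CSK4 arrays stood well above the resting array. The kinase gene EIF2AK2, whose product PKR stops translation, differed by 1.68, the helicase gene DDX60 by 1.66, and DHX58, which encodes the helicase LGP2, by 1.36. In levels, EIF2AK2 had 11.59 at 12 h and 11.03 at 24 h, 10.78 with Pam3CSK4 and 9.10 at rest. DDX60 had 10.12 at 12 h and 9.68 at 24 h, 9.46 with Pam3CSK4 and 7.80 at rest. DHX58 had 8.58 at 12 h and 8.08 at 24 h, 8.17 with Pam3CSK4 and 6.81 at rest. On the chosen probe sets, DHX58 was alone among the sensors in standing slightly lower at 24 h than with Pam3CSK4. RIGI differed by 1.83 on the second of its probe sets and by 0.16 on the third, whose suffix marks probes that may bind other transcripts. The other probe sets of IFIH1, under 6.19 on every array, differed by 0.67 and 0.81. Those of EIF2AK2 differed by 1.18 and 1.37.

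Among enzymes of nucleotides and RNA, RSAD2, or viperin, makes a chain-terminating nucleotide, and CMPK2, its neighbour on chromosome 2, is a mitochondrial nucleotide kinase. RSAD2 had 8.98 log2 at 12 h and 8.06 at 24 h, 7.97 with Pam3CSK4 and 6.44 at rest. CMPK2 had 11.83 at 12 h and 11.58 at 24 h, 11.36 with Pam3CSK4 and 9.71 at rest. They differed from rest by 1.53 and 1.65 with Pam3CSK4, and the RNA exonuclease gene ISG20 by 1.10 (2.20 on its other probe set). ISG20 had 8.68 at 12 h and 8.33 at 24 h, 8.20 with Pam3CSK4 and 7.09 at rest.

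Restriction factors and regulators ran over a wide range. TRIM22, a ubiquitin ligase that restricts retroviruses, had 10.98 log2 at 12 h and 10.56 at 24 h, 10.45 with Pam3CSK4 and 6.24 at rest, a difference of 4.21 with Pam3CSK4. EPSTI1 had 10.97 at 12 h and 10.19 at 24 h, 9.97 with Pam3CSK4 and 6.02 at rest, a difference of 3.94. PARP9, an ADP-ribosyltransferase relative, differed by 2.37, SAMD9L, a relative of SAMD9 that limits poxviruses, by 1.93, IFI35 by 1.57 and the pro-apoptotic gene XAF1 by 1.22. In levels, PARP9 had 10.51 at 12 h and 9.92 at 24 h, 9.98 with Pam3CSK4 and 7.61 at rest. SAMD9L had 10.31 at 12 h and 9.64 at 24 h, 9.57 with Pam3CSK4 and 7.64 at rest. In both genes the 24 h and Pam3CSK4 values lay close together, with 12 h above and rest far below. IFI35 had 10.67 at 12 h and 10.33 at 24 h, 10.37 with Pam3CSK4 and 8.79 at rest. XAF1 had 12.05 at 12 h and 11.59 at 24 h, 11.48 with Pam3CSK4 and 10.26 at rest.

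The 3 members under 2-fold with Pam3CSK4 were SAMD9, BST2 and LGALS3BP. SAMD9, a restriction factor of poxviruses, had 9.74 log2 at 12 h and 9.53 at 24 h, 9.37 with Pam3CSK4 and 8.44 at rest, a difference of 0.93 that was 1.18 on its other probe set. BST2, or tetherin, which ties budding virus to the membrane, had 9.96 at 12 h and 10.23 at 24 h, 10.46 with Pam3CSK4 and 9.96 at rest. LGALS3BP, a secreted glycoprotein, had 7.07 at 12 h and 7.02 at 24 h, 6.97 with Pam3CSK4 and 6.95 at rest. LGALS3BP thus varied by little over any array, and BST2 was alone in having its lowest value at 12 h. PLSCR1, a phospholipid scramblase grouped with these membrane and secreted proteins, was 1.43 log2 higher with Pam3CSK4. PLSCR1 had 11.52 at 12 h and 11.38 at 24 h, 11.36 with Pam3CSK4 and 9.93 at rest.

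**Figure D2:**
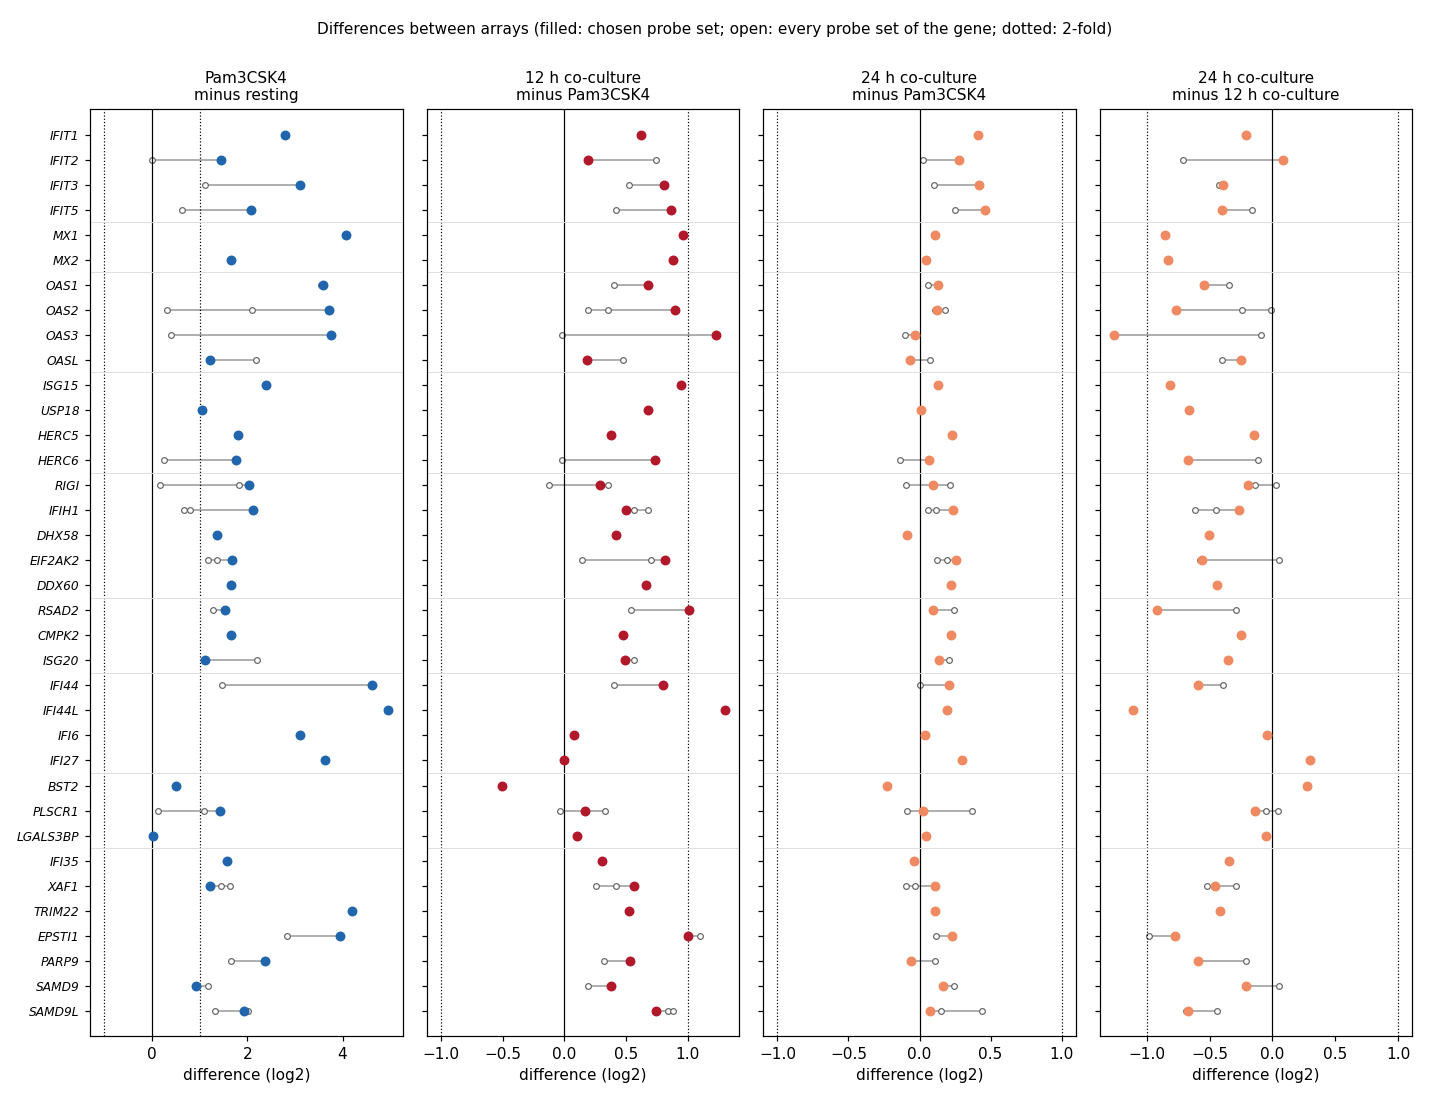
Differences between arrays (log2, horizontal axes, which differ between panels) for each member, with the chosen probe set filled, all probe sets of the gene open, and 2-fold marked by dotted lines. With Pam3CSK4, 33 chosen probe sets lie past 2-fold; at 12 h against Pam3CSK4 4 do, at 24 h against Pam3CSK4 none does, and at 24 h against 12 h 2 lie past 2-fold on the lower side.

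Agreement between probe sets shows how far a difference depends on the probe set chosen. Probe sets of a gene are read from the same arrays, so it does not gauge precision between cultures. For Pam3CSK4 against rest, 19 of the 20 members with more than 1 probe set kept 1 sign over them, the exception being IFIT2, with 1.44 on the chosen probe set and 0 on the other. The median width of the range over probe sets was 1.20 log2. The widest was that of OAS2, whose other probe sets differed by 0.32 and 2.09 against 3.71 on the chosen one. A probe set other than the chosen one gave a larger difference for 5 members, OASL, ISG20, XAF1, SAMD9 and SAMD9L.

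The second comparison set 12 h of co-culture against Pam3CSK4 without particles. A difference here joins the particles with any difference in culture time, and these cannot be told apart. The members were higher by a smaller margin, with a median difference of 0.59 log2, against -0.01 over all genes. Of the 36, 34 (94.4%) stood above 0, against 48.0% of all genes. Of the members, 4 were at least 2-fold higher and 0 were at least 2-fold lower. At least 2-fold higher were 0.308% of all genes, and 0.41% of those that reached 6.19. At least 2-fold lower were 0.243% of all genes. At 1.5-fold, 18 of the 36 members were higher and 0 lower, against 1.61% of all genes and 1.9% of those that reached 6.19.

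The 4 members past 2-fold were IFI44L, OAS3, RSAD2 and EPSTI1. IFI44L was 1.30 log2 higher at 12 h than with Pam3CSK4, OAS3 1.23, RSAD2 1.01 and EPSTI1 1.004. The last 2 were thus only just past the threshold. The second probe set of EPSTI1 differed by 1.10, and that of RSAD2 by 0.54. The other OAS3 probe set differed by -0.02 and lay under 6.19 on all arrays. IFI44L has 1 probe set.

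Just short of 2-fold were MX1 at 0.96, ISG15 at 0.95, OAS2 at 0.89, MX2 at 0.88 and IFIT5 at 0.86. EIF2AK2 differed by 0.82, IFIT3 by 0.81, IFI44 by 0.80, and HERC6 and SAMD9L by 0.74 each. Several of these values depended on the probe set. Other probe sets gave 0.36 and 0.19 for OAS2, 0.41 for IFIT5, and 0.14 and 0.70 for EIF2AK2. They gave 0.52 for IFIT3, 0.40 for IFI44 and -0.02 for HERC6, but a larger 0.84 and 0.88 for SAMD9L. MX1, ISG15 and MX2 have 1 probe set each. MX1 and MX2, far apart in their difference between Pam3CSK4 and rest, were alike in this one. The sensors RIGI, at 0.29, and DHX58, at 0.42, were lower in the list, as were IFI35 at 0.30, OASL at 0.18, IFIT2 at 0.19 and PLSCR1 at 0.17.

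A few members did not share the 12 h difference. IFI6 differed by 0.08 and IFI27 by -0.0033, although both had been at least 8-fold higher with Pam3CSK4 than at rest. BST2 was 0.50 log2 lower at 12 h than with Pam3CSK4, which put it at its resting value. LGALS3BP differed by 0.10. The 8 monocyte markers went both ways in this comparison, between -1.18 for CD14 and 0.33 for CSF1R with a median of -0.09, and their part in the members' differences was not tested.

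Over probe sets, 16 of 20 members had a single sign at 12 h. The 4 with mixed signs were OAS3, HERC6, RIGI and PLSCR1. The contrary values were small: -0.02 for HERC6, -0.12 for RIGI and -0.03 for PLSCR1. For HERC6 and PLSCR1 they came from probe sets near the floor of the arrays, with values of 3.57 at 12 h and 3.60 with Pam3CSK4 for HERC6. IFIT2 differed by 0.74 on its second, dimmer probe set, against 0.19 on the chosen one, so its place in the list depended on the probe set. All 3 probe sets of SAMD9L were close together, at 0.74 to 0.88, and those of IFIH1 at 0.50 to 0.67, though 2 of the 3 for IFIH1 lay under 6.19.

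**Figure D3:**
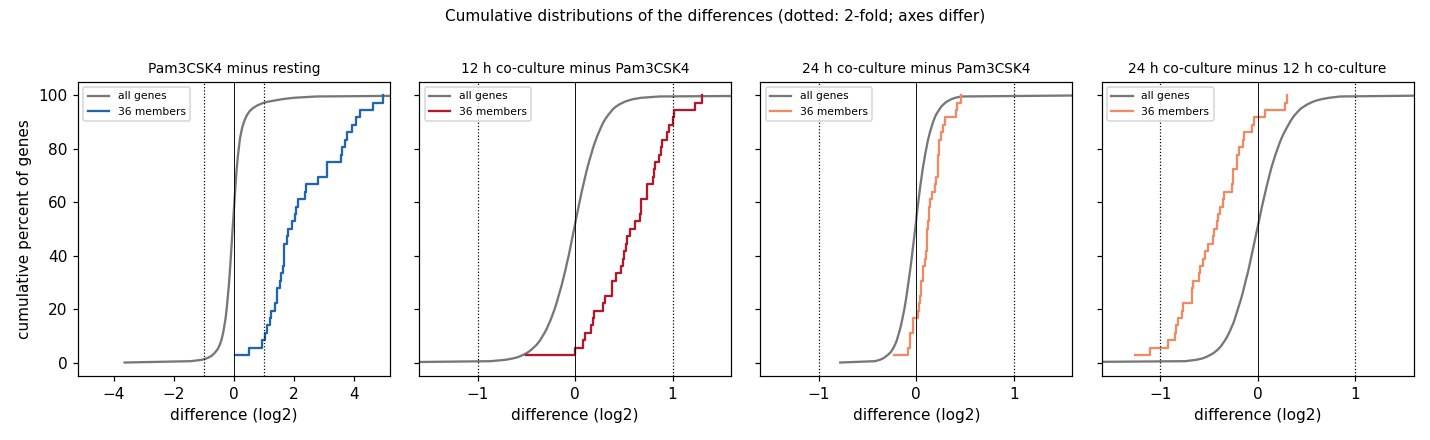
Cumulative percent of genes (vertical axis) against the difference between arrays (log2, horizontal axes, which differ between panels) for the 36 members and for all 19775 genes, whose curves run past the axes; dotted lines mark 2-fold. The members' curve lies to the right of that of all genes with Pam3CSK4 against rest (median 1.87) and at 12 h against Pam3CSK4 (0.59). Over most of its length it lies slightly to the right at 24 h against Pam3CSK4 (0.12). At 24 h against 12 h it lies to the left (-0.43).

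The third comparison set 24 h of co-culture against Pam3CSK4. None of the 36 members was 2-fold apart, and none was 1.5-fold apart, with a median difference of 0.12 log2 against -0.01 over all genes. At least 2-fold higher were 0.0303% of all genes, and 0.0298% of those that reached 6.19. The members' differences ran from -0.23 for BST2 to 0.46 for IFIT5. Of the 36, 30 (83.3%) were above 0 and 6 below, against 45.7% of all genes above 0. Of the 36, 30 (83.3%) lay within 0.25 log2 of the Pam3CSK4 array, against 90.8% of all genes, so the members were no closer to it than genes in general.

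The 6 members further above were IFIT5 at 0.46, IFIT3 at 0.42, IFIT1 at 0.41, IFI27 at 0.30, IFIT2 at 0.27 and EIF2AK2 at 0.26, so all 4 IFIT genes were among them. IFIT1 had 8.99 log2 at 24 h and 8.58 with Pam3CSK4, IFIT3 had 10.29 at 24 h and 9.87 with Pam3CSK4, and IFIT5 had 7.59 at 24 h and 7.13 with Pam3CSK4. On their second probe sets the differences were smaller, 0.10 for IFIT3, 0.25 for IFIT5 and 0.03 for IFIT2.

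The last comparison set 24 h against 12 h of co-culture. The members were lower at 24 h, with a median difference of -0.43 log2 against -0.003 over all genes, and 33 of 36 (91.7%) stood below 0 against 50.4% of all genes. At least 2-fold lower were 2 members, OAS3 at -1.26 and IFI44L at -1.11, against 0.162% of all genes and 0.224% of those that reached 6.19. At 1.5-fold, 13 members were lower and 0 higher, against 1.35% of all genes and 1.38% of those that reached 6.19. Next in size were RSAD2 at -0.92, MX1 at -0.85, MX2 at -0.83, ISG15 at -0.82, EPSTI1 at -0.78 and OAS2 at -0.77. Above 0 were IFI27 at 0.30, BST2 at 0.28 and IFIT2 at 0.08. The second probe set of IFIT2 differed by -0.71, so its direction turned with the probe set. The same was true of RIGI, EIF2AK2, PLSCR1 and SAMD9, with contrary values of 0.03 to 0.05.

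The comparison of Pam3CSK4 with rest and that of 24 h with 12 h share no array. Across the 36 members, those with a larger difference with Pam3CSK4 tended to be lower at 24 h relative to 12 h (Pearson r = -0.43, Spearman rho = -0.40). Across all 19775 genes the values were -0.17 and -0.14. These are correlations across genes of 4 arrays, and genes are not independent replicates. The members with and without the response element core in their promoter windows were set side by side as well. With Pam3CSK4, 19 of the 22 with the core and 7 of the 7 without it were at least 2-fold higher than at rest, with medians of 2.24 and 1.76 log2. At 12 h against Pam3CSK4 the medians were 0.64 with the core and 0.57 without it.

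Other genes of the pathway were taken from separate lists. Of 21 listed interferon genes, which encode the ligands, 18 had a probe set of their own, and 17 of the 18 were under 6.19 on every array. None was 2-fold apart in any comparison. IFNB1, the interferon beta gene, had 4.82 log2 at 12 h, 5.03 at 24 h, 5.03 with Pam3CSK4 and 4.95 at rest. The lambda interferon gene IFNL1 had 5.77 at 12 h, 5.36 at 24 h, 5.71 with Pam3CSK4 and 5.76 at rest. Signal above background was thus not established for these ligands at the times sampled, and no earlier array was analysed here.

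Of 9 receptor and kinase genes, 2 were at least 2-fold higher with Pam3CSK4 and 0 lower, namely the interferon gamma receptor chains IFNGR1 at 1.35 and IFNGR2 at 1.32. The chains of the type I receptor differed less on the chosen probe sets, IFNAR1 by 0.77 and IFNAR2 by 0.20. Over its 4 probe sets IFNAR1 ran from -0.02 to 1.04, so its place under 2-fold depended on the probe set. Over its 3 probe sets IFNAR2 ran from 0.18 to 0.52. Of 6 transcription factor genes with a probe set, IRF7 and IRF9 were at least 2-fold higher with Pam3CSK4 and 0 were lower. IRF7, which amplifies interferon production, had 10.34 log2 at 12 h and 9.90 at 24 h, 9.90 with Pam3CSK4 and 7.56 at rest. IRF9, a DNA-binding part of the complex that binds the response element, had 11.04 at 12 h and 10.54 at 24 h, 10.68 with Pam3CSK4 and 8.73 at rest. Both were lowest at rest and highest at 12 h, as were most members.

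Of 9 adaptor and kinase genes of nucleic acid sensing and Toll-like receptors, 1 was at least 2-fold higher with Pam3CSK4, the kinase gene IKBKE at 1.503, and 1 was lower, STING1, the adaptor of DNA sensing. STING1 had 8.60 log2 at 12 h and 9.34 at 24 h, 9.60 with Pam3CSK4 and 10.61 at rest. It was thus -1.01 from rest with Pam3CSK4 and a further -1.01 from Pam3CSK4 at 12 h, the reverse of the members' order. In a wider list of 40 other interferon-induced genes, 37 had a probe set and 11 were at least 2-fold higher with Pam3CSK4, with 0 lower and a median of 0.62. At 12 h against Pam3CSK4 the median of that list was 0.24, and 1 gene was past 2-fold, LAMP3 at 2.48.

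**Figure D4:**
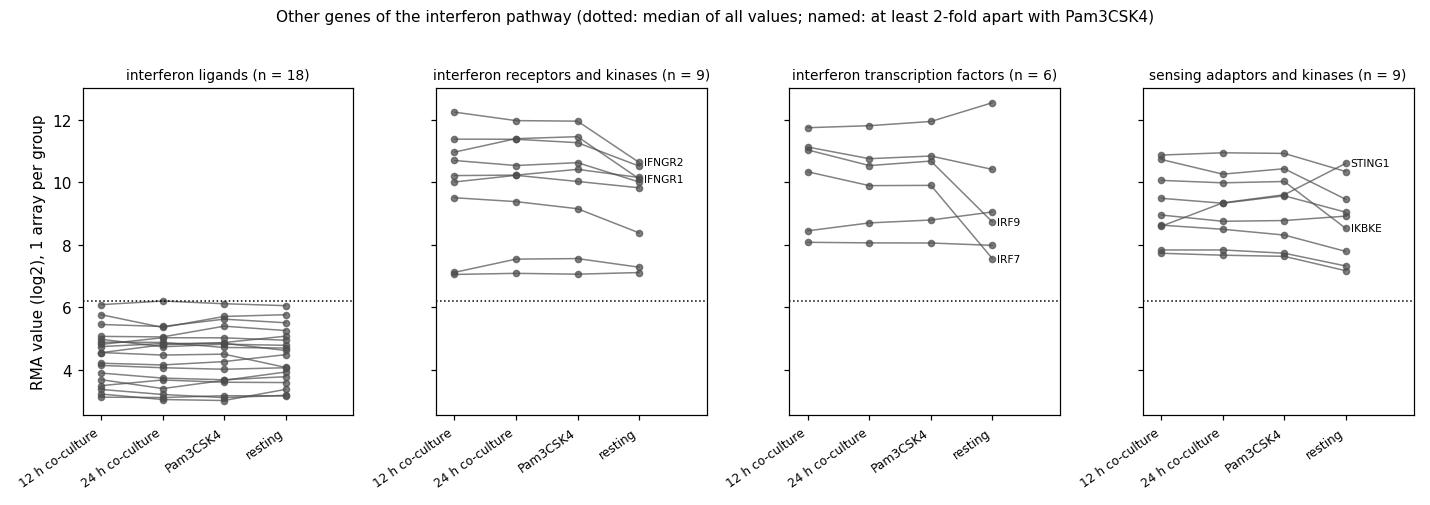
RMA values (log2, vertical axis) of interferon ligand genes, receptor and kinase genes, transcription factor genes and sensing adaptor genes on the 12 h, 24 h, Pam3CSK4 and resting arrays, 1 line per gene, with the dotted line at 6.19. The 18 ligand genes stay near or under the line on all arrays, while IRF7 and IRF9 are lowest at rest and STING1 is highest there.

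Cell type markers were checked once for the whole series. Of 8 monocyte markers with a probe set, 6 reached 6.19 on every array. The summed level of the 8 on the linear scale was 13824 at 12 h, 18987 at 24 h, 17464 with Pam3CSK4 and 9187 at rest. Most of this sum came from LYZ on every array. FCGR1A and FCN1 were under 6.19 on all arrays. The 8 megakaryocyte and platelet markers summed to 635 at 12 h, 554 at 24 h, 517 with Pam3CSK4 and 632 at rest. The 6 markers of plasmacytoid dendritic cells, a blood cell that secretes much interferon, summed to 430 at 12 h, 442 at 24 h, 460 with Pam3CSK4 and 586 at rest. The 5 lymphocyte markers summed to 1070 at 12 h, 1371 at 24 h, 1298 with Pam3CSK4 and 903 at rest, most of it from NKG7. The 4 erythroid markers summed to 656 at 12 h, 581 at 24 h, 582 with Pam3CSK4 and 545 at rest. The arrays hold RNA of all cells together, so fewer cells with a transcript and less of it per cell cannot be told apart. The part of these markers in the members' differences was not tested.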

How the data were processed

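RNA of THP-1 cells was measured on 4 whole-genome Affymetrix arrays, 1 per condition. The authors deposited log2 expression values per probe set, made with RMA in affy 1.28.1, per the submitters' processing notes. RMA equalises the arrays' distributions and compresses differences of dim probe sets. Of 54675 probe sets, 62 were controls, 41091 named 1 gene, 1801 named several and were not used, and 11721 were unnamed in the table used here. The members and lists were chosen with earlier results of these data known. A gene took the probe set with the highest mean over the arrays.

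Differences of log2 values were computed for 4 comparisons in Python 3.11.15 with pandas 2.3.3, and called at 2-fold. The counting was tested on simulated data. The number of arrays limits the precision. Singly described were members past 2-fold in co-culture, the 4 largest and 4 smallest with Pam3CSK4, members whose probe sets disagreed in sign, and at least 1 per role. Alternatives were other probe set choices, cyclic loess (limma 3.58.1, 3 iterations), filters at 6.19 and thresholds of 1.5-fold and 3-fold. Co-culture times follow the sample descriptions, 12 h and 24 h, while the sample titles end in 13 and 25, which stay unexplained. Promoter sequences are from RefSeq, and members without a window are IFIT2, MX2, OAS2, OASL, USP18, DHX58 and TRIM22.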

Additional observations from a re-analysis of the deposited data

Results flagged for a closer look

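Against the shared Pam3CSK4 array, 6 of the 36 members had opposite signs at 24 h and at 12 h of co-culture, as did 41.5% of all genes (8216 of 19775). The difference was not tested, since each time has 1 array. The value of 24 h minus 12 h was -1.26 log2 for OAS3, -0.59 for PARP9, -0.51 for DHX58, -0.34 for IFI35 and -0.25 for OASL, which were above Pam3CSK4 at 12 h and slightly below it at 24 h. It was 0.30 for IFI27, which differed from Pam3CSK4 by 0.30 at 24 h and by -0.0033 at 12 h. The 24 h sign against Pam3CSK4 turned on the other probe set of OASL (0.07) and of PARP9 (0.11), and the 12 h sign of IFI27 turned after cyclic loess (0.08). The other OAS3 probe set, under 6.19 on all arrays, was below Pam3CSK4 at both times (-0.02 at 12 h and -0.10 at 24 h).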

How the results depend on the processing

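With Pam3CSK4 against rest, 24 (3-fold threshold) to 34 (1.5-fold) members were higher and 0 lower under the alternatives run. The count was 27 of 31 without probe sets marked _x_at or _s_at and 26 of 29 with a filter on both arrays. At 1.5-fold, 5.34% of all genes were higher and 4.42% lower. The shares of all genes at 3-fold and under those 2 choices are not given here. At 12 h against Pam3CSK4, the count higher was 4 and became 2 with all probe sets of a gene averaged, 18 at 1.5-fold and 0 at 3-fold. It was 6 after cyclic loess. At 24 h against 12 h, the count lower was 2 and became 1 with the mean of probe sets, 13 at 1.5-fold and 0 at 3-fold. At 24 h against Pam3CSK4 it was 0 in both directions under every alternative run. Median differences kept their sign: 1.66 to 1.91, 0.50 to 0.67, 0.11 to 0.12, and -0.52 to -0.39 in the order of the report. OAS3 at 12 h against Pam3CSK4 turned to -0.0176 on the lowest of its probe sets. Of 700 values of single members, 625 changed by less than 0.25 log2 and 75 by at least that. The sign turned in 25 of the 700, over 16 combinations of member and comparison, and OAS3 at 12 h was the 1 of these past 2-fold in the report. Without probe sets marked _x_at or _s_at, IFIT5, ISG15, DDX60, IFI35 and TRIM22 had no value. Probe sets under 6.19 have no established signal above background. No paired analysis was possible because each condition has 1 array.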
